A study of Mus musculus with 4 samples.

Results

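Endothelium-rich spots of mouse lung were the 461 Visium spots in which Cldn5, Pecam1, Cdh5 and Egfl7 together held the largest share of the mRNA, of 4632 spots with at least 2000 unique molecular identifiers (UMIs, each marking 1 captured mRNA molecule) and 4933 spots in all. Within each section the spots were ranked by the summed UMIs of these 4 genes divided by all UMIs of the spot, and the highest 10% were taken. This took 78 of 781 spots from the NV male, 43 of 436 from the NV female, 148 of 1489 from the V male and 192 of 1926 from the V female. Sets of 4 values below keep this order of sections. All other spots of at least 2000 UMIs in the same section served for comparison, and within each section the UMIs of either kind of spot were added up.

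The sections came from the upper pulmonary branches of 4 C57BL/6J mice, 1 male and 1 female in each of the non-vaped (NV) and vaped (V) groups. V mice had breathed the aerosol of a flavoured vape juice from a commercial pen for weeks in a whole-body chamber, and NV mice had not been exposed. The lungs of both groups were filled with a mix of saline and embedding medium before freezing, and the 4 sections were processed together. Each animal gave 1 section, so differences between animals and between the pieces of tissue cut cannot be told apart.

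Capillaries form most of the vascular bed of the lung and line the alveoli, where they exchange gas with air across a thin layer of alveolar type 1 cells. Their wall holds general capillary cells, which can divide and repair the bed, and aerocytes, which are large, thin cells specialized for gas exchange. The 4 genes of the rule are expressed by endothelium of all vessels. Cldn5 encodes the claudin of endothelial tight junctions, Pecam1 encodes the adhesion molecule CD31, Cdh5 encodes VE-cadherin of adherens junctions, and Egfl7 encodes a factor secreted by endothelial cells. A spot covers several cells, so an endothelium-rich spot is a small region of tissue with a high share of endothelial mRNA and not a capillary.

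On the GRCm38 build (GENCODE vM21), Cldn5 (ENSMUSG00000041378) lies at chr16:18776847-18778262 on the plus strand and Pecam1 (ENSMUSG00000020717) at chr11:106654217-106750628 on the minus strand. Cdh5 (ENSMUSG00000031871) occupies chr8:104101625-104144511 and Egfl7 (ENSMUSG00000026921) chr2:26580014-26593120, both on the plus strand.

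Spots were chosen by the UMIs of Cldn5, Pecam1, Cdh5 and Egfl7, and these values are given as a description, with no test. The median score of endothelium-rich spots was 27.3, 27.5, 32.4 and 28.99 marker UMIs per 10000 UMIs, whereas the other spots of these sections had medians of 14.95, 14.1, 19.98 and 15.7. The highest single spots reached 47.9, 37.3, 51.5 and 49.5 in the same order. At the border, the last spot taken and the first spot left out scored 24.69 and 24.67 for the NV male, 25.95 and 25.82 for the NV female, 29.44 and 29.43 for the V male, and 26.07 and 26.06 for the V female. The score ran on without a gap, and the border was higher in the V male than in the other 3 sections.

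**Figure D1:**
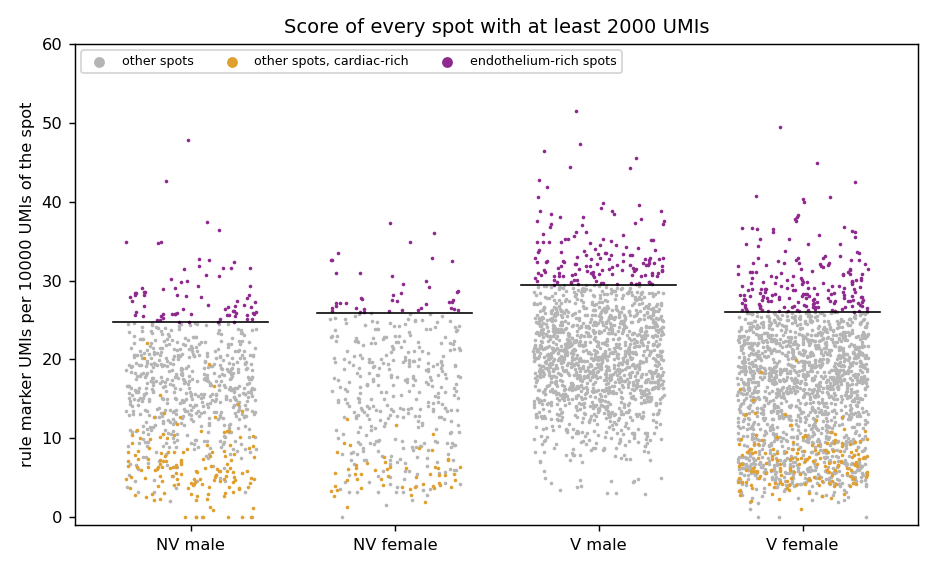
Score of every spot with at least 2000 UMIs (y axis, UMIs of Cldn5, Pecam1, Cdh5 and Egfl7 per 10000 UMIs of the spot) in each section (x axis, points spread sideways at random), with the border as a black line. Cardiac-rich spots lie below the border in 3 sections, and the V male holds none.

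Depth set how well single spots could be ranked. Endothelium-rich spots held a median of 30, 30, 17 and 22 marker UMIs. Their median total was 10926, 9845, 4998 and 7431.5 UMIs, against 10087, 11231, 6643 and 13373 in the other spots, so they were shallower than the other spots in 3 of 4 sections. Summed over endothelium-rich spots, the depth was 983914, 490680, 915806 and 1776345 UMIs. All 4 markers were detected in 77 of 78, 42 of 43, 133 of 148 and 175 of 192 of these spots.

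The variance of marker UMIs between spots, divided by the variance that counting alone would give at each spot's depth, was 4.23, 7.85, 1.27 and 8.08. In the V male the spots therefore differed in these markers by little more than counting error. When every spot was thinned at random to 2000 UMIs and scored again, 48.7%, 51.2%, 35.8% and 45.3% of the endothelium-rich spots of the 4 sections were chosen again. Results are therefore given with and without the V male where they rest on it.

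The tissue around the vessels also differed between sections. Cardiac-rich spots, in which 7 genes of heart muscle held at least 1% of UMIs, made up 147 (20.9%), 54 (13.7%), 0 and 176 (10.1%) of the other spots. No endothelium-rich spot was cardiac-rich in any section. Without cardiac-rich spots, the variance of marker UMIs over that of counting alone was 2.32, 5.12, 1.27 and 6.99. Cardiac muscle is known to surround the pulmonary veins of the mouse and to form the wall of the heart. Barcodes mark positions on a slide and recur between slides, and 277 to 1167 barcodes were shared between pairs of sections, of which 3 to 15 were endothelium-rich in both.

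Pan-endothelial, aerocyte and general capillary genes outside the rule were nearly all higher in endothelium-rich spots than in the other spots. Several other lists of endothelial genes were more mixed. These contrasts share their spots, and so the depth and the makeup of those spots, with the rule and were not tested. Levels are given as counts per 1000000 UMIs (CPM) of the summed spots, and the ratio is the CPM in endothelium-rich spots over that in the other spots of the section. Among 10362 genes with at least 50 UMIs in every section, 2243 (21.6%) had a ratio over 1 in all 4 sections and 620 (5.98%) a ratio under 1 in all 4. A level at least 25% higher in all 4 sections was found for 105 genes (1.01%) and a level at least 20% lower for 90 (0.869%), and without the V male the latter were 675 of 10690 (6.31%). The median ratio of all these genes was 1.11, 1.13, 0.996 and 1.15, so ratios just above 1 in the other 3 sections are those of most genes.

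Of 22 pan-endothelial genes, 19 had a ratio over 1 in all 4 sections, against 21.6% of all genes counted. The summed list had ratios of 1.52, 1.904, 1.11 and 1.75. Only S1pr1, the receptor for sphingosine 1-phosphate that keeps endothelial barriers tight, was 25% higher in all 4 sections, whereas 21 of 22 were in the 3 sections other than the V male, where 1029 of 10690 genes (9.63%) were. S1pr1 measured 233, 297.5, 421.5 and 231 CPM in endothelium-rich spots and 147, 195, 334 and 115.5 CPM in the other spots. It was higher in the endothelium-rich spots of every section, by ratios between 1.26 and 2.004.

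Receptors of vascular endothelial growth factor and angiopoietin showed the difference between the V male and the other sections. Kdr, the main signalling receptor for this growth factor, reached 285, 291, 242 and 275 CPM in endothelium-rich spots and 164.5, 134, 231 and 137 CPM in the other spots. The endothelium-rich spots were thus similar in all sections, and the other spots of the V male came closer to them than those of the remaining sections. Flt1, which binds and sequesters the growth factor, had ratios of 1.75, 1.68, 1.18 and 1.54. The angiopoietin receptor Tek had ratios of 1.58, 1.84, 1.07 and 1.86, and its partner Tie1 1.72, 1.61, 1.18 and 1.73. The ligand Vegfa, made mainly by alveolar type 1 cells in the lung, had ratios of 1.29, 1.48, 0.98 and 1.45. Across the list of 10 ligands and receptors, 6 had a ratio over 1 in all sections, against 21.6% of all genes. Without the V male 6 were 25% higher, against 9.63% of all genes.

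The pathway of bone morphogenetic protein 9 and its receptor ALK1, which keeps vessels quiescent, had summed ratios of 1.44, 1.77, 1.11 and 1.70. Without the V male 9 of its 10 genes were 25% higher, against 9.63% of all genes. The receptor genes Acvrl1 (ALK1), Eng (endoglin) and Bmpr2 had ratios between 1.44 and 2.08 outside the V male and between 1.08 and 1.17 within it. Smad7, an inhibitor induced by this signal, was 25% higher in all 4 sections, with 108, 128, 115 and 121 CPM against 67.1, 58.1, 89.4 and 76.8 CPM. Tmem100, a target of ALK1 enriched in lung endothelium, measured 520, 514, 857 and 716 CPM in endothelium-rich spots and 372, 273, 722 and 331 CPM elsewhere.

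Summed over the list, transcription factors of endothelial identity had ratios of 1.515, 1.995, 1.08 and 1.68, again lowest in the V male. Epas1, the hypoxia-inducible factor HIF-2 alpha, had ratios of 1.55, 2.03, 1.09 and 1.66, and Foxf1, a factor needed for lung capillary development, 1.68, 2.03, 1.03 and 2.04. Sox18 had ratios of 1.75, 2.26, 1.08 and 1.66. Erg, which maintains endothelial fate, had ratios of 1.251, 1.82, 1.24 and 1.46. Of 11 factors, 7 had a ratio over 1 in all sections, against 21.6% of all genes. The Notch list, which patterns arteries, had lower summed ratios of 1.42, 1.46, 1.09 and 1.49. In this list 5 of 7 genes were over 1 in all sections, against the same 21.6%, and Notch4 was at 1.63, 1.42, 0.99 and 1.56.

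Enzymes and receptors by which lung capillaries act on vasoactive substances were among the genes with higher ratios. Hpgd, which breaks down prostaglandins, measured 468, 552, 592 and 481 CPM in endothelium-rich spots and 222, 253, 488 and 238 CPM in the other spots. Its ratios of 2.11, 2.18, 1.21 and 2.02 were close to those of the rule genes outside the V male. Slco2a1, which carries prostaglandins into the cell, had ratios of 1.59, 2.16, 1.11 and 1.97, and Ace, the angiotensin-converting enzyme, 1.45, 1.77, 1.13 and 1.78. Calcrl and Ramp2, which together form the adrenomedullin receptor, had ratios of 1.53, 2.03, 1.18 and 1.89, and of 1.55, 1.97, 1.11 and 1.78. Ptgis, the prostacyclin synthase, lay close to 1 in all sections, at 1.04, 1.05, 1.02 and 1.16. Thbd, the thrombomodulin that prevents clotting, had ratios of 1.61, 1.91, 1.15 and 1.75, whereas Vwf, carried mostly by larger vessels, had 1.66, 1.15, 1.06 and 1.36. Nos3, the endothelial nitric oxide synthase, gave 8 to 33 UMIs in the endothelium-rich spots of a section and ratios on both sides of 1.

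Genes of lipid uptake were mixed. The summed list had ratios of 0.86, 0.55, 1.02 and 0.53. In all sections 3 of its 6 genes were under 1, against 5.98% of all genes, and 1 was over 1, against 21.6%. The latter was Cd36, a fatty acid transporter, with ratios between 1.09 and 1.28 and levels of 1054, 1206, 1687 and 1034 CPM. Fabp4, a fatty acid carrier of fat cells and of capillaries in heart and fat, measured 213, 1720, 31.7 and 1827 CPM in endothelium-rich spots and 573, 4719, 32.9 and 5149 CPM in the other spots. Both its level and its ratio followed the section, with ratios of 0.37, 0.36, 0.96 and 0.35. Lpl, the lipase held on the capillary wall, had ratios of 0.54, 0.39, 1.02 and 0.45, while Gpihbp1, which holds it there and marks general capillary cells, had 1.32, 1.36, 0.99 and 1.59. Adipocyte genes, summed, were at 111, 507, 10.9 and 875 CPM in endothelium-rich spots and at 233, 1561, 16.0 and 2515 CPM elsewhere, and their part in the Fabp4 and Lpl values was not tested.

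**Figure D2:**
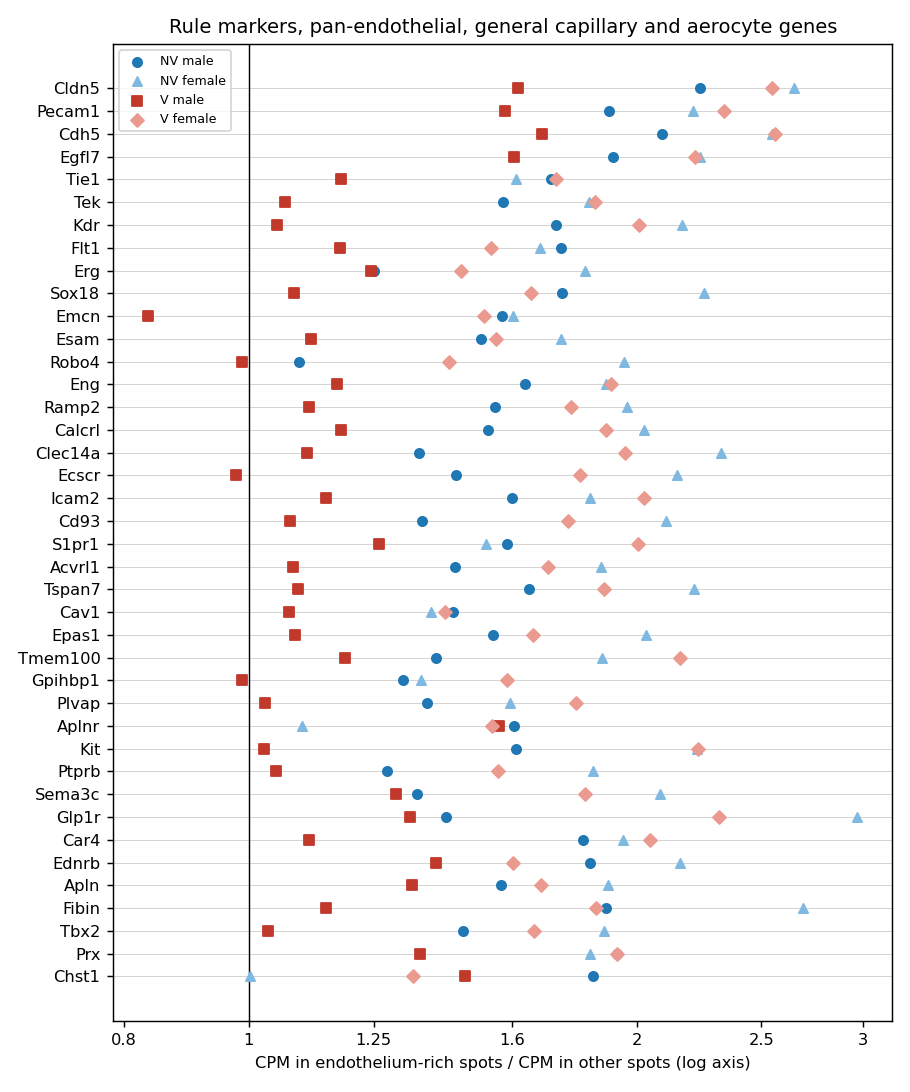
Ratio of CPM in endothelium-rich spots to CPM in other spots (x axis, log scale, 1 marked by a line) for the 4 rule markers, 22 pan-endothelial genes, 7 general capillary genes and 7 aerocyte genes (y axis), 1 symbol per section. V male ratios lie closest to 1 for nearly all genes outside the rule, as for Kdr at 1.05 and Epas1 at 1.09.

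Because the rule genes mark all endothelium, markers of its subtypes were compared to see which vessels the spots held. Summed over its list, aerocyte expression had ratios of 1.73, 1.95, 1.18 and 1.79, and general capillary expression 1.36, 1.82, 1.09 and 1.74. Arterial markers had ratios between 1.07 and 1.52, venous markers 1.685, 1.37, 1.08 and 1.396, and lymphatic markers 1.397, 1.599, 1.07 and 1.47. In every section the aerocyte ratio was above the other 4, and the general capillary ratio was above the arterial ratio, but below the venous and lymphatic ratios in the NV male. The spots are thus called endothelium-rich, since all 5 of these lists were higher in them and their ratios were not tested against each other. A further list, of capillaries in heart and fat, had summed ratios of 0.88, 0.52, 1.09 and 0.48.

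Aerocyte genes 25% higher in all 4 sections were Ednrb, Apln and Prx, 3 of 7 counted, against 1.01% of all genes. Ednrb, the endothelin receptor type B, measured 159, 163, 207.5 and 115 CPM in endothelium-rich spots and 86.2, 75.4, 149 and 71.6 CPM in the other spots. Prx, which encodes periaxin, had ratios of 1.93, 1.84, 1.36 and 1.93. Car4, the carbonic anhydrase on the capillary surface, reached 356, 257, 339 and 269 CPM against 196, 132, 304 and 131 CPM, with ratios of 1.82, 1.95, 1.11 and 2.05. Rprml, the eighth gene of the list, had 3 to 16 UMIs in the endothelium-rich spots of a section and was not counted. Each of the other 7 aerocyte genes had a ratio over 1 in all sections, against 21.6% of all genes. Without the V male 6 were 25% higher, against 9.63% of all genes.

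Among general capillary genes, Sema3c and Glp1r were 25% higher in all 4 sections, 2 of 7, against 1.01% of all genes. Glp1r, the receptor for glucagon-like peptide 1, measured 197, 243, 181 and 190 CPM against 139, 81.8, 136 and 82.2 CPM, and its ratio of 2.97 in the NV female was its highest. Kit had ratios of 1.61, 2.23, 1.03 and 2.23, and Plvap, which forms the diaphragms of capillary pores, 1.38, 1.596, 1.03 and 1.79. In the 3 sections other than the V male, 6 of the 7 were 25% higher, against 9.63% of all genes. Of arterial genes, 0 of 7 were 25% higher in all sections, as were 0 of 5 venous and 0 of 5 lymphatic genes. Without the V male, 4 of 7 arterial, 2 of 5 venous and 3 of 6 lymphatic genes were, against the same 9.63%. The arterial connexin gene Gja5 had ratios between 0.89 and 1.18. Slc6a2, the noradrenaline transporter of lung endothelium in veins, reached a ratio of 3.53 in the NV male (166 UMIs in 78 spots) and 1.13 in the V male.

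Spots that scored highest for the 22 pan-endothelial genes, chosen in the same way, were shared with 150 of the 461 endothelium-rich spots (32.5%), and the share was 41.0%, 46.5%, 23.6% and 32.8% by section. The highest aerocyte spots were shared with 109 (23.6%), the highest general capillary spots with 93 (20.2%), the highest arterial spots with 73 (15.8%) and the highest venous spots with 71 (15.4%). Among lists of other cells, pericyte spots were shared with 82 (17.8%) and neutrophil spots with 72 (15.6%), close to the arterial and venous lists. The remaining lists of other cells had fewer, down to 10 (2.17%) for cardiac muscle. Each list picked 10% of spots. Which single spots were taken therefore depended on the genes that scored them. With the pan-endothelial score, the median ratio over sections was 1.89 in place of 1.64 for that list. For the rule genes it was 1.78 in place of 2.22.

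Cells that surround capillaries shared the direction of the endothelial genes. Pericyte genes had summed ratios of 1.26, 1.63, 1.05 and 1.58, with Pdgfrb at 1.58, 1.58, 1.05 and 1.46. Alveolar type 1 genes had ratios of 1.32, 1.67, 0.97 and 1.62, and alveolar fibroblast genes 1.18, 1.55, 0.97 and 1.62. Alveolar type 2 genes had ratios of 1.05, 1.47, 0.92 and 1.49. Alveolar type 1 and fibroblast ratios were thus above the median of all genes in 3 sections and not in the V male. In the NV male the alveolar type 2 ratio of 1.05 was below that median of 1.11.

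Genes of blood cells went both ways. Neutrophil genes had summed ratios of 1.504, 1.43, 1.16 and 1.34, T and NK cell genes 1.36, 1.68, 1.17 and 1.48, and globin genes 1.16, 1.73, 0.93 and 1.57. Genes of megakaryocytes and platelets had ratios of 0.67, 0.79, 0.99 and 0.63, and those of B and plasma cells 0.67, 0.67, 1.003 and 1.12. Within the B and plasma cell list, Cd79a, Cd79b and Ms4a1 had ratios over 1 in all 4 sections. Jchain was under 1 in all 4, and Ighm had ratios of 0.61, 0.60, 0.98 and 1.12. Gzma, the granzyme A of NK and cytotoxic T cells, was among the 10 genes outside the rule with the highest smallest ratio over the sections. Its ratios were 1.55, 1.48, 1.42 and 2.06, from 15 to 107 UMIs in the endothelium-rich spots. The 4 globin genes have near-identical copies, between which reads may be split.

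Genes of cardiac muscle, the tissue around large vessels, airways and pleura were lower in the endothelium-rich spots of at least 3 sections, whereas arterial and venous endothelial lists were not. Cardiac muscle genes were at 4324, 3689, 10.9 and 2528 CPM in them and at 11322, 12036, 14.1 and 6506 CPM in the other spots. Adventitial fibroblast genes had ratios of 0.69, 0.56, 0.89 and 0.58, with Dcn (decorin) at 0.39, 0.35, 0.67 and 0.31. Smooth muscle genes had ratios of 0.67, 0.66, 1.01 and 0.68, mesothelial genes 0.89, 0.70, 0.83 and 0.63, and genes of complement-producing macrophages 0.54, 0.43, 0.86 and 0.69. Club cell genes, which mark conducting airways, had ratios of 0.81, 0.53, 0.98 and 0.54.

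The 10 genes with the highest smallest ratio were Trib2, Bud13, Ankrd33b, Ube2l6, Tmem170, Gzma, Riox1, Nptx1, Rad50 and Samd5. Trib2, a pseudokinase, led these 10 with 72.2, 95.8, 92.8 and 71.5 CPM against 37.3, 46.9, 58.9 and 40.2 CPM. It came from 47 to 127 UMIs per section, and the other 9 had as few as 5 to 20 UMIs in the section with the fewest, so their order is limited by counting error. At the other end stood Nppa, Tnnc1, Rbpms2, Car3, Rasl10b, Fbln2, Uchl1, Apod, Hist1h4h and Jph2. Nppa, the atrial natriuretic peptide, had ratios of 0.38, 0.31, 0.35 and 0.36, and Car3, an enzyme of fat and muscle, 0.23, 0.20, 0.50 and 0.21. In the V male these 2 genes rested on 2 and 3 UMIs in the endothelium-rich spots.

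**Figure D3:**
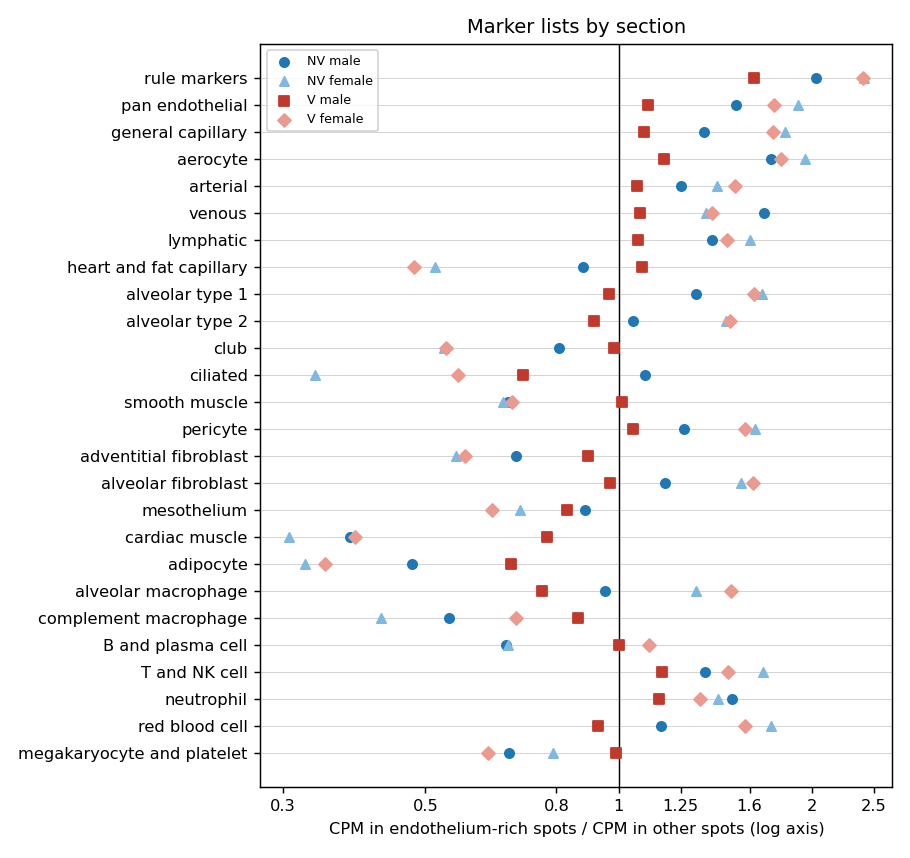
Ratio of summed CPM in endothelium-rich spots to that in the other spots (x axis, log scale, 1 marked by a line) for each list of marker genes (y axis), 1 symbol per section. Aerocyte ratios run from 1.18 to 1.95 and cardiac muscle ratios from 0.31 to 0.77.

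Leaving out cardiac-rich spots before scoring narrowed the contrast. The median over sections of the pan-endothelial ratio was then 1.43 in place of 1.64, that of the aerocyte list 1.52 in place of 1.76 and that of the general capillary list 1.36 in place of 1.55. Genes 25% higher in all sections numbered 38 in place of 105, and genes 20% lower numbered 43 in place of 90. These 3 endothelial lists kept ratios over 1 in every section. Some contrasts with other tissue shrank more, with a median of 0.986 in place of 0.677 for smooth muscle, 0.895 in place of 0.385 for cardiac muscle, 1.03 in place of 1.26 for alveolar type 2 and 1.18 in place of 1.47 for alveolar type 1 genes. Those of adventitial fibroblast genes (0.723 in place of 0.634) and pericyte genes (1.29 in place of 1.42) shrank less than these.

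Whether vaping changed the endothelium-rich spots was asked by comparing the 2 V with the 2 NV sections. In sums over spots, fewer cells of a type and less RNA per cell cannot be told apart. Rule markers reached similar levels in all sections. Cldn5 measured 739, 764, 828 and 713 CPM, and Cdh5 689, 764, 827 and 730 CPM, with overlap between groups. Pecam1 measured 534, 601, 678 and 602 CPM, and Egfl7 864, 766, 967.5 and 884 CPM, without overlap. Summed, they gave 2861 ± 49.9 CPM in NV and 3115 ± 262 CPM in V sections (SD, n = 2), and no test was made of them.

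No gene was called between V and NV in the endothelium-rich spots. Of 10045 genes tested with edgeR's quasi-likelihood test, 0 (0%) passed an adjusted p of 0.05 with a log2 fold change beyond 0.25, and 302 had an unadjusted p under 0.05. By DESeq2's Wald test 5 genes were called, Igha higher in V and Ighm, Nr4a1, Hspa1b and Hspa1a lower, with adjusted p between 3.67e-05 and 0.00749. The smallest two-sided p of an exact permutation test is 0.33 at this group size. In 1453 genes (14.5%) both V sections were above both NV sections, and in 1697 (16.9%) both were below.

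The genes with the smallest p among those without overlap were heat shock and stress genes on the lower side. Hspa1a, which encodes an inducible HSP70 chaperone, measured 83.3, 93.7, 7.64 and 18.01 CPM. Hspa1b, its near-identical neighbour, measured 87.4, 130.4, 4.37 and 15.8 CPM, and reads may be split between this pair. The V male values rest on 7 and 4 UMIs. Both were several-fold lower in each V section than in each NV section. The log2 fold change was -2.63 ± 0.37 (SE) for Hspa1a and -3.20 ± 0.45 for Hspa1b, each with an adjusted p of 0.448 (edgeR). In the other spots of the same sections, Hspa1a had a log2 fold change of -2.65 and Hspa1b of -2.47, and both V sections were again below both NV sections.

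Nr4a1, an early-response nuclear receptor, measured 214, 93.7, 28.4 and 32.7 CPM (log2 fold change -2.33 ± 0.39, SE, adjusted p = 0.865, edgeR). Spry4, an inhibitor of growth factor signalling, measured 47.8, 44.8, 12.01 and 15.8 CPM, and Gadd45a, a DNA damage response gene, 39.6, 34.6, 10.9 and 11.8 CPM. Each had a log2 fold change of -1.68 and an adjusted p of 0.9999 (edgeR). The immediate-early list, a sign of how tissue was handled and of recent stimulation, was at 676, 524, 394 and 383 CPM. Of its 5 tested genes, 3 were lower in both V sections, as were 16.9% of all genes tested. The part of this list in the values of Nr4a1, Spry4 and Gadd45a was not tested.

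On the higher side, Igha, the heavy chain of immunoglobulin A made by plasma cells, measured 43.7, 42.8, 277 and 130 CPM (log2 fold change 2.23 ± 0.38, SE, adjusted p = 0.865, edgeR). Ighm, the heavy chain of immunoglobulin M, went the other way, at 517, 666, 111 and 239 CPM. All 5 genes of the B and plasma cell list were lower in both V sections, against 16.9% of all genes tested. Ifit3, an interferon-induced gene, measured 41.7, 30.6, 81.9 and 79.4 CPM, and Lyz1, a lysozyme of macrophages and epithelium, 336, 253, 697 and 546 CPM. Malat1, a nuclear noncoding RNA, measured 752, 591, 1297 and 1210 CPM, and C030006K11Rik 10.2, 12.2, 28.4 and 33.2 CPM. For these 4 the log2 fold changes were 1.13, 1.09, 0.92 and 1.52, each with an adjusted p of 0.9999 (edgeR).

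**Figure D4:**
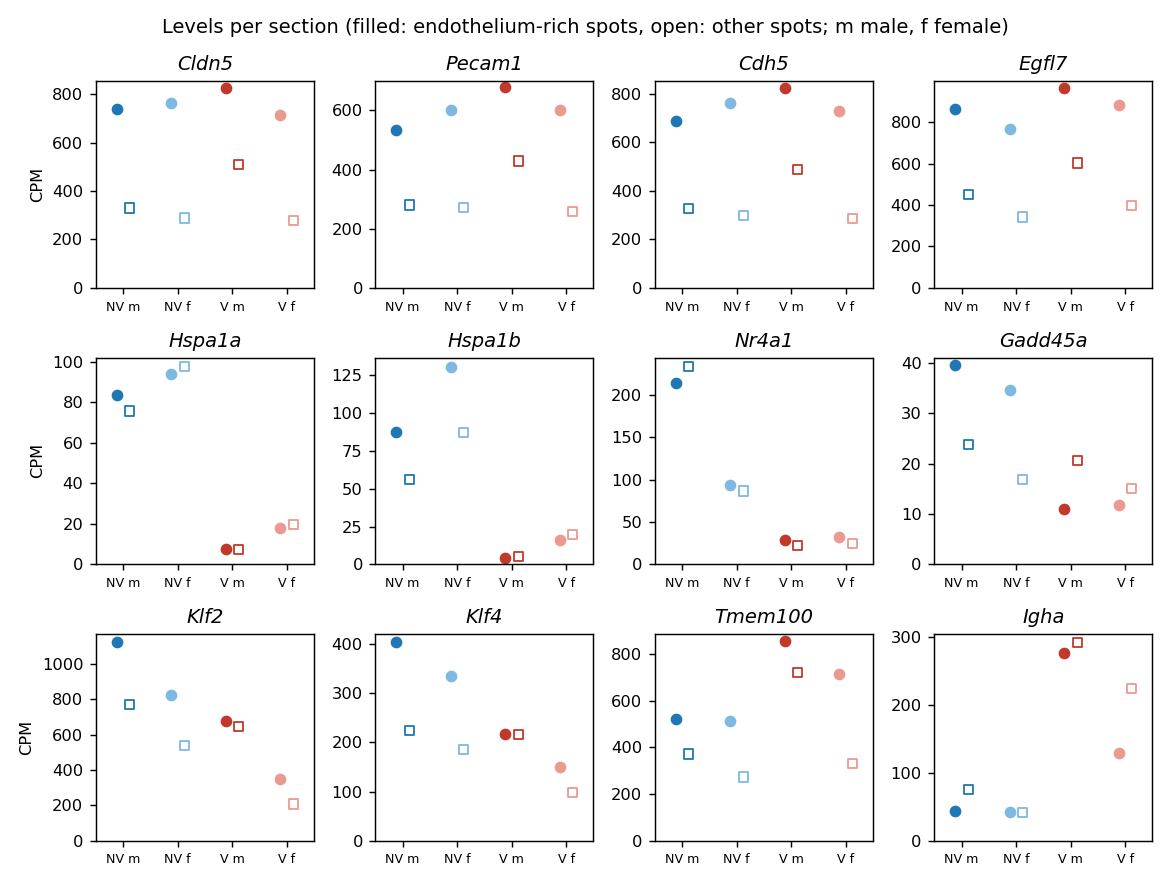
CPM (y axes, from 0) of the 4 rule markers and 8 further genes in endothelium-rich spots (filled) and other spots (open) of each section (x axes). Hspa1a lies between 83.3 and 93.7 CPM in the NV and between 7.64 and 18.01 CPM in the V endothelium-rich spots, and the open symbols show the same order.

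Among 7 genes of flow sensing and nitric oxide signalling 0 were called, and the median log2 fold change was -0.12. In both V sections 3 were lower and 1 was higher, against 16.9% and 14.5% of all genes tested. Klf2, the transcription factor that laminar flow induces in endothelium, measured 1122, 825, 674 and 347 CPM. Klf4, its relative, measured 405, 334, 216 and 150 CPM. Both were lower in V without overlap, and their log2 fold changes were -0.93 ± 0.32 and -1.005 ± 0.26 (SE), with adjusted p = 0.9999 (edgeR). In the other spots the changes were -0.71 and -0.47, there with overlap. The immediate-early list was also lower in V, as given above, and its part in these values was not tested. Cav1, the caveolin of endothelial membrane pits, went the other way, with 934, 984, 1269 and 1079 CPM (log2 fold change 0.31 ± 0.18, SE, adjusted p = 0.9999, edgeR). Vcam1, a leukocyte adhesion molecule of activated endothelium, measured 129, 85.6, 59.0 and 51.8 CPM, again without overlap (log2 fold change -0.97 ± 0.26, SE, adjusted p = 0.9999, edgeR). Thbd, at 854, 897, 1064 and 797 CPM, and Icam1, at 614, 575, 655 and 517 CPM, overlapped between groups.

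Capillary identity genes differed less. Pan-endothelial genes summed to 11037 ± 417 CPM in NV and 12084 ± 2133 CPM in V sections (SD, n = 2), and 0 of 22 were called, with a median log2 fold change of 0.17 against 0.0033 over all genes tested. Aerocyte genes summed to 1101 ± 32.5 and 1136 ± 231 CPM, with 0 of 7 called and a median of 0.01. General capillary genes summed to 1934 ± 262 and 2117 ± 169 CPM, with 0 of 7 called and a median of 0.18. These group means differed by less than the spread between the sections of at least 1 group. In the other spots the median log2 fold changes of the same lists were 0.40, 0.35 and 0.34 in this order, against 0.0235 over all genes. There only the V male was above both NV sections in the sum of each list. The pan-endothelial sums, for instance, were 7058, 5951, 12249 and 6049 CPM. Tmem100 was higher in both V sections (520, 514, 857 and 716 CPM, log2 fold change 0.62 ± 0.20, SE, adjusted p = 0.9999, edgeR), and so was the arterial connexin gene Gja4 (39.6, 46.9, 53.5 and 122 CPM, log2 fold change 1.10), whose change was 0.33 without the V female and 1.57 without the V male.

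Some genes of the lists followed single sections. Rgcc, which curbs endothelial growth, measured 180, 359, 692 and 193 CPM, and Angptl4, an inhibitor of lipoprotein lipase, 26.4, 55.0, 181 and 37.2 CPM. In both, the V male was highest and the V female lay within the range of the NV sections. Without the V male, the log2 fold change of Rgcc was -0.39 in place of 0.73 and that of Angptl4 was 0.04 in place of 1.46. Ager, a gene of alveolar type 1 cells, measured 2026, 1881, 3012 and 2621 CPM (log2 fold change 0.54 ± 0.16, SE, adjusted p = 0.9999, edgeR). All 8 alveolar type 1 genes tested had a log2 fold change above 0, and 5 of them were higher in both V sections, as were 14.5% of all genes tested. Their summed level was 4865 ± 8.22 CPM in NV and 6290 ± 454 CPM in V sections (SD, n = 2). In the other spots all 8 were above 0 as well, with a median log2 fold change of 0.49 against 0.31 in the endothelium-rich spots. Their summed level there was 3680, 2913, 6844 and 3675 CPM, and only the V male was above both NV sections.

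Some gene lists differed widely between sections. Cardiac muscle genes were at 4324 and 3689 CPM in NV and at 10.9 and 2528 CPM in V sections, with Tnni3 and Myh6 at 0 UMIs in the V male. Of these genes, 7 of 7 were lower in both V sections, against 16.9% of all genes tested. Club cell genes were at 10709, 1298, 305 and 7599 CPM, and lymphatic genes at 524, 567, 1189 and 465 CPM, with Lyve1 at 201, 322, 779 and 190 CPM. Pericyte genes, at 579, 654, 590 and 623 CPM, varied less. The part of these tissues in the comparison of V with NV was not tested.

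Calls depended on which V section was included. Without the V male, 128 genes were called in endothelium-rich spots, of which 46 had no overlap when all 4 sections were compared, and without the V female 437 were called, of which 209 had none. Leaving out either NV section gave 0 calls. In these fits the lone V section was assumed to vary like the NV sections. In the other spots, 0 of 14428 genes were called (247 with an unadjusted p under 0.05), and DESeq2's Wald test called 7.

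The difference of the V to NV effect between endothelium-rich and other spots was tested directly, within sections. Of 13573 genes, 0 (0%) were called by edgeR, 366 had an unadjusted p under 0.05, and DESeq2's Wald test called 0. Ighm had the smallest p on the higher side, with 852, 1116, 114 and 214 CPM in the other spots (difference in log2 fold change 0.87 ± 0.22, SE, adjusted p = 1, edgeR). Gadd45a came first on the lower side, with 23.9, 16.8, 20.6 and 15.1 CPM in the other spots and a difference of -1.36 ± 0.36 (SE, adjusted p = 1, edgeR). Tmprss4, a membrane protease, measured 32.5, 26.5, 13.1 and 14.1 CPM in endothelium-rich spots and 19.5, 10.1, 26.8 and 16.1 CPM elsewhere, a difference of -1.41. Pus10, a pseudouridine synthase, measured 28.5, 34.6, 14.2 and 13.5 CPM against 15.1, 14.8, 18.1 and 14.4 CPM, a difference of -1.18. Rcan2, a calcineurin regulator, had a difference of 0.98. Epm2a, the phosphatase laforin, had 12, 12, 2 and 9 UMIs in endothelium-rich spots, and its difference of -2.04 ± 0.597 (SE) ran from -9.51 to -0.42 with other shares of spots. Lmod2, Hepacam, Gm45495 and Fcgbp were also named by the rule, but Lmod2, Hepacam and Gm45495 had 0 UMIs in the endothelium-rich spots of at least 1 section and Fcgbp had 3 to 5, so no fold is given.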

How the data were processed

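The 4 sections were sequenced on the Visium platform. The authors aligned reads with Space Ranger to the mm10 mouse genome, per the labels, and deposited UMI counts of 32285 genes per spot, without normalization. Their later Seurat 4.0.3 normalization and clustering were not used. The chosen spots, gene lists and tests were chosen with earlier results of these data known.

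Spots of at least 2000 UMIs were scored, ties going to more marker UMIs and then column order, and UMIs were summed per section. CPM were scaled to total UMIs alone. Sums were fitted with edgeR 4.0.16 in R 4.3.3 (TMM, filterByExpr, quasi-likelihood test, Benjamini-Hochberg adjustment), the 4 rule genes left out, with section as a block for the difference. Spots are not replicates, and each animal gave 1 section. Named were the genes of the lists, the 10 outside the rule with the highest and lowest ratios in the section nearest to 1, and the 5 with the smallest p in each direction without overlap of V and NV. DESeq2 1.42.0 and limma 3.58.1 (pseudocount of 1) were alternatives. Each fit was tested on simulated data with log2 fold changes of 2, placed only on genes with higher counts. Every gene was given the same spread between sections, the common value that edgeR estimated. Of these changes edgeR recovered 99% in endothelium-rich spots, 35% in the other spots and 100% for the difference. For the difference limma recovered 0%. A lack of calls in the other spots is therefore weak evidence of no change. The recovery in endothelium-rich spots does not carry over to genes with fewer UMIs or a wider spread. In the real sums, the larger changes of Hspa1a and Hspa1b were not called there, so a lack of calls does not exclude changes of this size. Positions of spots were not analysed here.

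Labels give replicate 1 to males and 2 to females, and no shared litter or batch, so the main fit was unpaired.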

Additional observations from a re-analysis of the deposited data

Results flagged for a closer look

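In the males and the females the V to NV ratio in endothelium-rich spots went opposite ways, by 1.5-fold or more each way, for 4 lists and 1 gene. This was not tested, since each sex has 1 section per group. Club cell genes had a ratio of 0.0284 in males and 5.85 in females, ciliated cell genes 0.203 and 8.75, and adipocyte genes 0.0986 and 1.73. Neutrophil genes had a ratio of 3.06 in males and 0.443 in females, with S100a9 at 106 and 91.7 CPM in the NV and 323 and 54.6 CPM in the V sections. Rgcc had a ratio of 3.85 in males and 0.538 in females. The sex of the animals and the piece of tissue cut cannot be told apart.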

How the results depend on the processing

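The comparison of V with NV gave 0 calls in endothelium-rich spots with DESeq2 size factors, with limma (396 at an unadjusted p under 0.05), with other minimum depths, shares or scores of spots, without cardiac-rich spots and with sums thinned to the smallest. DESeq2's Wald test called 5 there and 7 in the other spots, and omitting the filter on low counts gave 82 calls in endothelium-rich spots, of which 61 had no overlap between groups. With each section left out in turn, calls ranged from 0 to 437 in endothelium-rich spots, 0 to 899 in the other spots and 0 to 102 for the difference, each highest without the V female, and scoring by the pan-endothelial list gave 1 call for the difference. The replicate numbers shared between groups follow sex, and the labels give no other pairing. The correlation of deviations was 0.119, a single value, since the 2 sections of a group deviate equally in opposite directions. With the replicate block 0 genes were called in endothelium-rich spots and 0 in the others. The smallest adjusted p in endothelium-rich spots was then 0.0923 (edgeR), against 0.448 without the block. Genes 25% higher in all sections numbered 160 with the highest 5% of spots, 176 with the pan-endothelial score, 38 without cardiac-rich spots and 180 to 1029 with 1 section left out, the most without the V male. Genes 20% lower numbered 52 with the highest 20% of spots, 43 without cardiac-rich spots, 53 with thinned spots and 133 to 675 with 1 left out, again the most without the V male. Apart from Rgcc, whose log2 fold change ranged from -0.39 to 1.40 with a section left out, the log2 fold changes recomputed for 22 genes in endothelium-rich spots and 6 for the difference kept their sign, and those in the other spots and the list medians were not recomputed. The causes of these shifts were not tested. Endothelium-rich spots held the fewest marker UMIs in the V male, with a median of 17 per spot. The choice of leaving out a section for the ratios and the count of calls without overlap were made after seeing the data.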
